A study of Homo sapiens with 6 samples.

Results

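The genes described here encode the parts of the death receptor pathway that lie between the cell surface and the initiator caspases. They were the probe sets whose symbol in the platform annotation was TNFSF10, FAS, TNFRSF10A, TNFRSF10B, FADD, TRADD, CASP8, CASP10, CFLAR or RIPK1. The rule found 40 probe sets of 54613 that are not controls, and they stood for 9 genes, since the annotation used named no probe set for RIPK1, the kinase of these complexes, which was not analysed here. The samples were 3 arrays of MALC, the name for multicellular aggregates of lymphoma cells, collected after 10 days, and 3 arrays of suspension cells collected in exponential growth. All 6 arrays (Affymetrix U133 Plus) held RNA of untreated cells of RL, an established human B lymphoid cell line that carries the t(14,18) translocation typical of follicular lymphoma. Nothing in the labels says that the samples of a group were separate cultures, and a p-value here reflects the spread among these arrays alone, which may be technical.

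In this pathway a ligand of the tumour necrosis factor family, such as TRAIL or Fas ligand, gathers its receptors at the cell surface. The receptors recruit the adaptor FADD through their death domains, and FADD brings in caspase-8 and caspase-10, which cleave and activate themselves when held close together. FLIP, the product of CFLAR, resembles caspase-8 but lacks its protease activity and competes for the same place. TRADD serves a receptor for tumour necrosis factor itself. Germinal centre B cells, from which follicular lymphoma derives, carry Fas and are removed through it.

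The genes moved in both directions. In MALC, the inhibitor gene CFLAR was higher in each of its 12 tested probe sets, by 1.20-fold to 3.29-fold. CASP8 was 1.33-fold and 1.47-fold higher in its 2 tested probe sets, whereas the adaptor gene FADD had 0.595 of its suspension signal. The receptors were divided, each changing by less than 1.5-fold. FAS was called higher in 3 of 5 tested probe sets and TNFRSF10B in 1 of 3, and TNFRSF10A was called lower in 3 of 3. TRADD and CASP10 did not pass the test, and the ligand gene TNFSF10 was too dim to be tested.

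Of the 40 probe sets, 31 had a mean of log2(signal + 16) over the 6 arrays at or above the 40th percentile, a signal of 53.4, and were tested. In limma with Benjamini-Hochberg adjustment at 0.05 over 32768 probe sets, 18 of the 31 were higher in MALC, 4 were lower and 9 did not pass. Over all probe sets tested, 21.2% were higher and 20.4% were lower. Of the 18 rises, 12 belonged to CFLAR, whose probe sets share a target and are not independent of each other. Among the 19 tested probe sets of the other 7 genes, 6 were higher and 4 lower. The groups did not overlap in 27 of the 31, against 56.1% of all probe sets tested. The median log2 change was 0.35 over the 31 and −0.04 over all tested. The 12 CFLAR probe sets, with a median of 0.86, weigh on the former. The 9 untested probe sets, which belong to 6 genes, had signals between 13.5 and 55.97. Folds were taken from log2(signal + 16) and are too small where probe sets are dim. In these bulk samples, less RNA per cell and fewer cells with that RNA cannot be told apart. The lower count was 2 without suspension 2 and 2 without suspension 3. Over all 32768 probe sets, limma then called 10616 and 10472, against 13649 with all arrays. With both of these arrays left out, fewer still were called, among the members and over all probe sets.

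**Figure D1:**
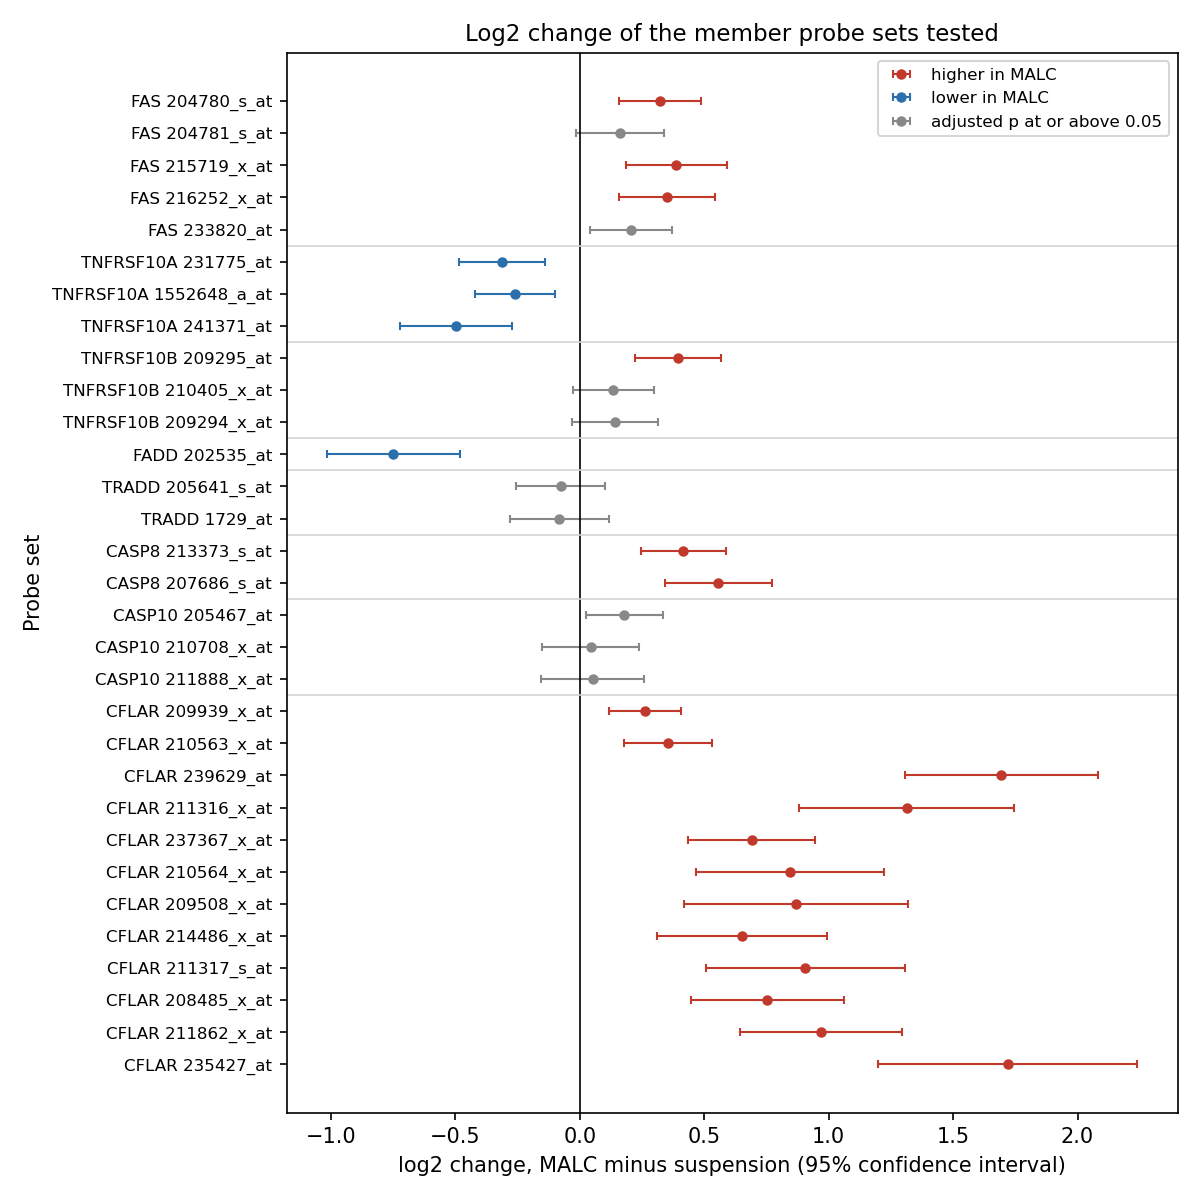
The log2 change (MALC minus suspension) of each of the 31 tested probe sets is drawn with its 95% confidence interval from limma, grouped by gene, with colours for the call at an adjusted p of 0.05. CFLAR spans 0.26 to 1.72, and every other probe set lies within 0.75 of 0.

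The arrays also differed within each group, and some of the measures below were split by culture form. Samples 2 and 3 of each group were nearly alike (Pearson r across probe sets 0.9984 in MALC and 0.9985 in suspension), and sample 1 correlated with either at 0.9949 to 0.9955. The suspension arrays correlated with MALC 1 at 0.9874 to 0.9888 and with MALC 2 and MALC 3 at 0.9768 to 0.9815. For the ACTB controls, the 3′ probe set gave 1.22 to 1.33 times the 5′ signal in MALC and 1.31 to 1.54 times in suspension. For GAPDH it gave 1.01 to 1.02 times the 5′ signal in MALC and 1.04 to 1.06 times in suspension, without overlap. The part of RNA quality in the results was not tested. All 5 B cell markers measured passed the filter, as did 12 of 20 markers of T cells, NK cells, macrophages, fibroblasts and endothelium, and no marker was listed at 0. The summed fibroblast markers reached 421 to 472.5 in the MALC arrays, against 481.7 to 934.9 in the suspension arrays. COL1A2 had 46.3, 45.97 and 54.17 in MALC, against 54.08, 346.6 and 126.9 in suspension, and COL3A1 had at most 24.22 in MALC and 173.8 in suspension 2. The summed NK cell markers likewise did not overlap (250.4 to 258.5 in MALC, against 274.8 to 301.5 in suspension), while the sums of T cell, macrophage and endothelial markers did. Of the 17 markers tested, limma called 0, with 2 (COL1A2 and NCAM1) under an unadjusted p of 0.05. The part of these markers in the results was not tested.

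For 4 of the genes that changed, the 250 bases before the most upstream start site that RefSeq gives in GRCh38.p14 are shown, to set the promoters of 3 genes that rose beside that of FADD, which fell. Capitals mark matches, on either strand, to GGG followed by any 5 bases and CC, the general form of an NF-kB site.
CFLAR, plus strand, chr2:201118466-201118715: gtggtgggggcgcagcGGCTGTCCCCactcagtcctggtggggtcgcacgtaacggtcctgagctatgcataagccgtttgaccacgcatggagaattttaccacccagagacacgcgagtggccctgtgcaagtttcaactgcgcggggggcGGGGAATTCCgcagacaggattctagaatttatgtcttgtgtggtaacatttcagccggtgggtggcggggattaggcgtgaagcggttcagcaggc
CASP8, plus strand, chr2:201233213-201233462: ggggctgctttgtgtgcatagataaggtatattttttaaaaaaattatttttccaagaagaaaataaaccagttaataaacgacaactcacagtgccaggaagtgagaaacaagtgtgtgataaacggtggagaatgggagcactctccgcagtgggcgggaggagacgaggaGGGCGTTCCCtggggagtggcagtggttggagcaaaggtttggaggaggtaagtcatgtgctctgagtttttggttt
FAS, plus strand, chr10:88990548-88990797: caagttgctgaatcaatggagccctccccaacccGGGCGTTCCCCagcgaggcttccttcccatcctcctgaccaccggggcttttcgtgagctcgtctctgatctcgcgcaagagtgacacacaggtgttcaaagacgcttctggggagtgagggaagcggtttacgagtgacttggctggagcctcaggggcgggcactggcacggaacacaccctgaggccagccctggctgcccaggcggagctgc
FADD, plus strand, chr11:70203046-70203295: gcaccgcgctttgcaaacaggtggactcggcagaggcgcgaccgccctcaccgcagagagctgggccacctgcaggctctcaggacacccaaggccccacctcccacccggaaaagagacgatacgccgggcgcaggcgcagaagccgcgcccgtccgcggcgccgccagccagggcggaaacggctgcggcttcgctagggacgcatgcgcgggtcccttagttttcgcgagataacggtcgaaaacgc

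The CFLAR window held 2 such matches, the CASP8 window 1 and the FAS window 2, which overlap and are drawn as a single run. The FADD window held 0. The pattern occurs in 54.4% of 35116 such windows before RefSeq start sites, so these matches are a description only. Whether any of them is a bound site was not tested. The GC box GGGCGG, searched on both strands, was present in all 4 windows (2 matches in FADD and 1 in each of the others) and in 42.6% of all windows. The forkhead motif GTAAACA, in 2.98% of all windows, was in none of the 4. Before other RefSeq start sites of the same genes, the NF-kB pattern had 0, 0 and 1 matches in CFLAR. It had 0 and 1 in CASP8, and 2 and 0 in FAS. The windows of TNFRSF10A and TNFRSF10B, which also changed, were not examined, so FADD alone stands for the genes that fell.

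TNFSF10 encodes TRAIL, the ligand of the TNFRSF10 receptors. Its brightest probe set, 202687_s_at, had signals of 36.81, 47.21 and 55.97 in MALC, against 25.84, 36.08 and 37.82 in suspension. The groups overlapped there, and all 3 of its probe sets lay under the filter. With no filter, 202688_at was called (log2 change 0.21, adjusted p = 0.0322 in limma), at 25.76, 31.49 and 27 in MALC and 20.34, 23.03 and 23.09 in suspension. No detection calls were used here, so signals this low were not shown to be above background.

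FAS encodes the receptor of Fas ligand and is also a target gene of p53. Probe set 204780_s_at had 2272, 2210 and 2012 in MALC, against 1652, 1764 and 1760 in suspension. Every MALC array lay above every suspension array, and the mean was 2165 ± 136 in MALC and 1725 ± 63.5 in suspension (SD, n = 3 each; 1.25-fold, adjusted p = 0.00865 in limma). Probe sets 215719_x_at and 216252_x_at were 1.31-fold and 1.28-fold higher. The other 2 probe sets, 204781_s_at and 233820_at, had log2 changes of 0.16 and 0.20 and did not pass (adjusted p = 0.128 and 0.052), although their groups did not overlap either. With the sample number as a block, 233820_at passed (adjusted p = 0.0417 in limma). The calls of 204780_s_at and 216252_x_at were lost with suspension 1 as the only suspension array (adjusted p = 0.067 and 0.0587), where their log2 changes of 0.39 and 0.44 were larger than those with all arrays (0.32 and 0.35).

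The TRAIL receptors moved apart. TNFRSF10B encodes DR5, and its brightest probe set, 209295_at, had 2712, 2774 and 2794 in MALC, against 1906, 2268 and 2125 in suspension. The groups were clearly apart, with a 1.32-fold rise (95% confidence interval of the log2 change 0.22 to 0.57, adjusted p = 0.00471 in limma). Its dimmer probe sets 210405_x_at and 209294_x_at had log2 changes of 0.14 each and did not pass (adjusted p = 0.162 and 0.166), and 1556645_s_at was under the filter.

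TNFRSF10A encodes DR4, the other receptor that carries the TRAIL signal. Probe set 231775_at had 2015, 2019 and 2161 in MALC, against 2346, 2702 and 2671 in suspension. Each MALC array was below each suspension array, a fall to 0.805 of the suspension level (adjusted p = 0.0125 in limma). Probe set 241371_at had 368.1, 416.4 and 413.4 in MALC, against 506.2, 614.3 and 592.5 in suspension, and fell to 0.709. Probe set 1552648_a_at fell to 0.834, so all 3 DR4 probe sets were called in the same direction. The call of 231775_at was lost without MALC 2, suspension 2 or suspension 3 (log2 change −0.297, −0.276 and −0.285, adjusted p = 0.0557, 0.0574 and 0.0555 in limma). That of 1552648_a_at was lost without MALC 3, suspension 2 or suspension 3 (log2 change −0.253, −0.253 and −0.252, adjusted p = 0.0611, 0.0756 and 0.0756 in limma). All 3 calls were lost without both suspension 2 and suspension 3. Their log2 changes in that last setting were −0.18 for 231775_at, −0.23 for 1552648_a_at and −0.33 for 241371_at, against −0.31, −0.26 and −0.50 with all arrays.

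The difference between the receptors was itself taken within each array, as log2(signal + 16) of TNFRSF10B 209295_at minus that of TNFRSF10A 231775_at. It was 0.43, 0.46 and 0.37 in MALC, against −0.30, −0.25 and −0.33 in suspension. The arrays of a group lay within 0.1 of each other, and the groups differed by 0.71, a 1.63-fold change of DR5 relative to DR4. The exact permutation test gave p = 0.1 (two-sided), which is the smallest that 3 arrays against 3 allow, and so it was for each of 6 pairs of probe sets, which were chosen after their values were seen. Adjusted over the 6 pairs the p-values are again 0.1. FAS 204780_s_at minus TNFRSF10A 231775_at likewise lay higher in MALC (0.17, 0.13 and −0.10) than in suspension (−0.50, −0.61 and −0.60), by 0.64. In both pairs, the first probe set was higher and the second lower in every MALC array. Their separation and permutation p-value therefore followed from the signals given above and add no evidence. The levels of different probes are not comparable, and only the shift between groups is read from such a difference.

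**Figure D2:**
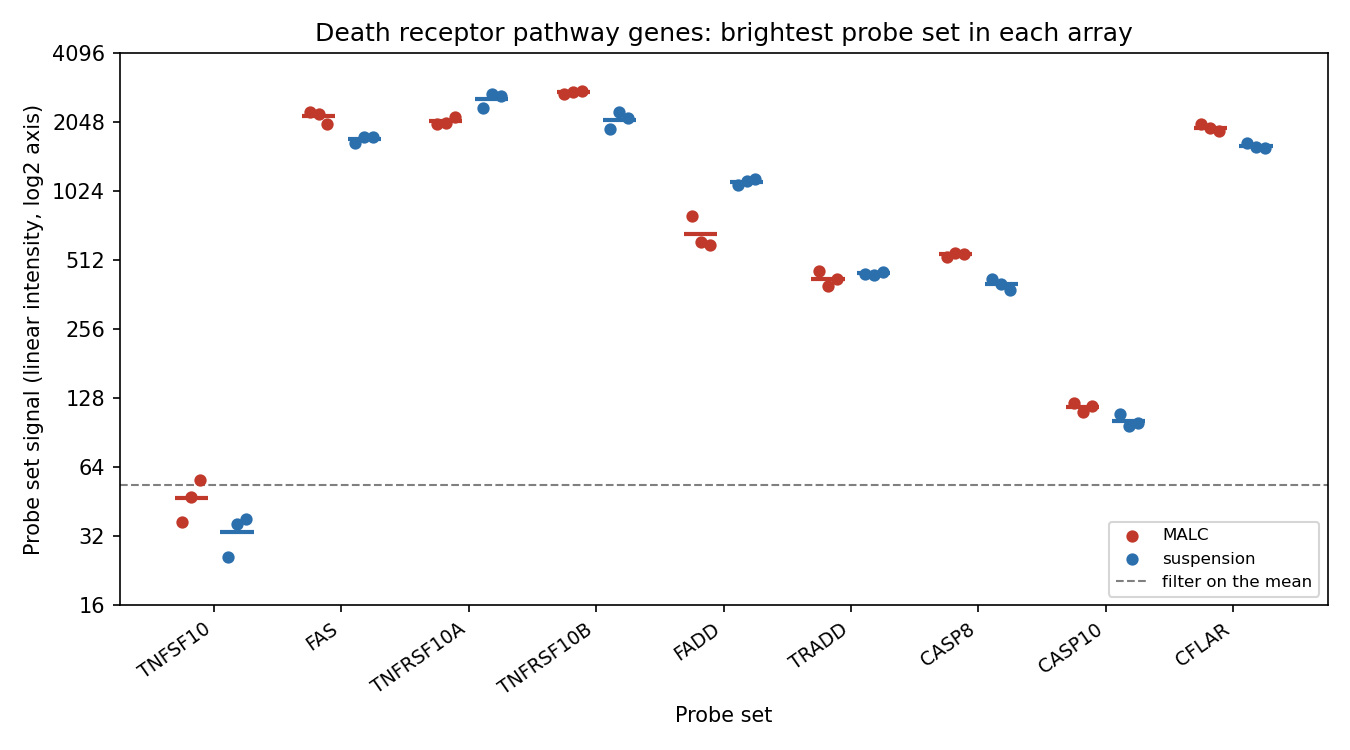
The signal of the brightest probe set of each of the 9 genes is plotted for each array (points, log2 axis) with the group mean (bar), MALC left of suspension, and the dashed line is the filter at 53.4. FADD and TNFRSF10A are lower in all 3 MALC arrays, and FAS, TNFRSF10B, CASP8 and CFLAR are higher.

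FADD links the receptors to the caspases, and it had a single probe set, 202535_at. Its signals were 795.8, 611.1 and 597 in MALC, against 1093, 1129 and 1151 in suspension. MALC 1 was the highest of the aggregates but stayed below all suspension arrays. The mean was 667.9 ± 111 in MALC and 1124 ± 29.6 in suspension (SD, n = 3 each), and the log2 change of −0.75 (95% confidence interval −1.02 to −0.48, adjusted p = 0.00198 in limma) was larger in size than those of 91% of all tested probe sets. With suspension 1 as the only suspension array the log2 change was −0.71 and the call was lost (adjusted p = 0.0571).

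TRADD, the adaptor of tumour necrosis factor receptor 1, did not pass in either tested probe set. Probe set 205641_s_at had 456.8, 395.3 and 421.6 in MALC, against 446.7, 442.3 and 454 in suspension, and MALC 1 was the highest of all 6 arrays. Its log2 change was −0.08 with a 95% confidence interval of −0.26 to 0.10 (adjusted p = 0.454 in limma), and that of 1729_at was also −0.08. Of the alternatives run, 1729_at passed with array weights only (adjusted p = 0.0479).

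CASP8 encodes the initiator caspase of the pathway. Probe set 213373_s_at had 529.1, 550.2 and 545.9 in MALC, against 424.9, 403.8 and 378.6 in suspension. The groups were separated by more than the range within either, at 541.7 ± 11.2 in MALC and 402.4 ± 23.1 in suspension (SD, n = 3 each; 1.33-fold, adjusted p = 0.00354 in limma). Probe set 207686_s_at had 138.8, 145.9 and 159.5 in MALC, against 85.16, 93.68 and 108.9 in suspension, a 1.47-fold rise (adjusted p = 0.00277). Probe set 1553306_at lay under the filter. The 213373_s_at call was lost without suspension 2 and suspension 3, with a log2 change of 0.34 against 0.42 with all arrays (adjusted p = 0.0814).

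CASP8 and FADD, whose products bind each other, thus moved in opposite directions. Within arrays, the log2 value of CASP8 213373_s_at minus that of FADD 202535_at was −0.57, −0.15 and −0.13 in MALC, against −1.33, −1.45 and −1.56 in suspension. The groups differed by 1.17, a 2.24-fold change of CASP8 relative to FADD. Since CASP8 was higher and FADD lower in every MALC array, the groups could not overlap. The exact permutation p of 0.1, the smallest possible, was likewise fixed and adds no evidence.

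CASP10 encodes a close relative of caspase-8 that FADD also recruits. Its brightest probe set, 205467_at, had 121.5, 111.7 and 118.5 in MALC, against 108.7, 96.69 and 99.9 in suspension. The groups did not overlap, but the log2 change of 0.18 did not pass (95% confidence interval 0.02 to 0.33, adjusted p = 0.0637 in limma). Probe sets 210708_x_at and 211888_x_at had log2 changes of 0.04 and 0.05 with overlapping groups. The 205467_at change passed without suspension 1 (adjusted p = 0.0372) and with array weights (0.0177). In the RefSeq gene table, CASP10 lies between CFLAR and CASP8 on chromosome 2, with no other protein-coding gene among the 3, so the gene that did not pass sits between a pair that rose.

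CFLAR had 14 probe sets, and the 12 tested ones were all higher in MALC. Probe set 239629_at had 840.2, 1273 and 1189 in MALC, against 375.4, 316.6 and 285.7 in suspension. The lowest aggregate was more than 2-fold above the highest suspension array, and the means were 1101 ± 229 in MALC and 325.9 ± 45.6 in suspension (SD, n = 3 each; 3.24-fold, adjusted p = 0.000429 in limma). Probe set 235427_at had 192.8, 316.8 and 298.2 in MALC, against 47.45, 84.1 and 80.17 in suspension (3.29-fold, adjusted p = 0.00109). Its suspension 1 value lay below the signal of the filter, which was set on the mean of all arrays. Probe set 211316_x_at had 518.4, 825.7 and 793 in MALC, against 245.9, 321.3 and 252.4 in suspension, a 2.49-fold rise. These 3 were the member probe sets that changed at least 2-fold, and 4.21% of all tested probe sets changed that much in either direction.

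The CFLAR rise was much smaller in other probe sets of the gene. Probe set 209939_x_at, the brightest, had 2006, 1933 and 1872 in MALC, against 1659, 1591 and 1584 in suspension, a rise of 1.20-fold (adjusted p = 0.0117 in limma). Probe set 210563_x_at had 1567, 1631 and 1454 in MALC, against 1282, 1151 and 1188 in suspension, a rise of 1.28-fold (adjusted p = 0.00787). The remaining 7 tested probe sets lay between, from 1.57-fold for 214486_x_at to 1.96-fold for 211862_x_at, and the median log2 change of the 12 was 0.86. MALC 1 was the lowest of the aggregates in 10 of the 12, yet above all suspension arrays in each of the 12. The 209939_x_at call was lost without MALC 2, suspension 2 or suspension 3 (log2 change 0.264, 0.254 and 0.251, adjusted p = 0.0505, 0.0542 and 0.0543 in limma). Without suspension 2 and suspension 3 it was lost as well, together with those of 210563_x_at, 208485_x_at, 211317_s_at, 214486_x_at and 237367_x_at (adjusted p = 0.0668 to 0.164). In that setting 211317_s_at, 214486_x_at and 208485_x_at had log2 changes of 0.90, 0.69 and 0.69, against 0.91, 0.65 and 0.75 with all arrays. Those of 209939_x_at, 210563_x_at and 237367_x_at were 0.22, 0.27 and 0.58, against 0.26, 0.36 and 0.69.

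**Figure D3:**
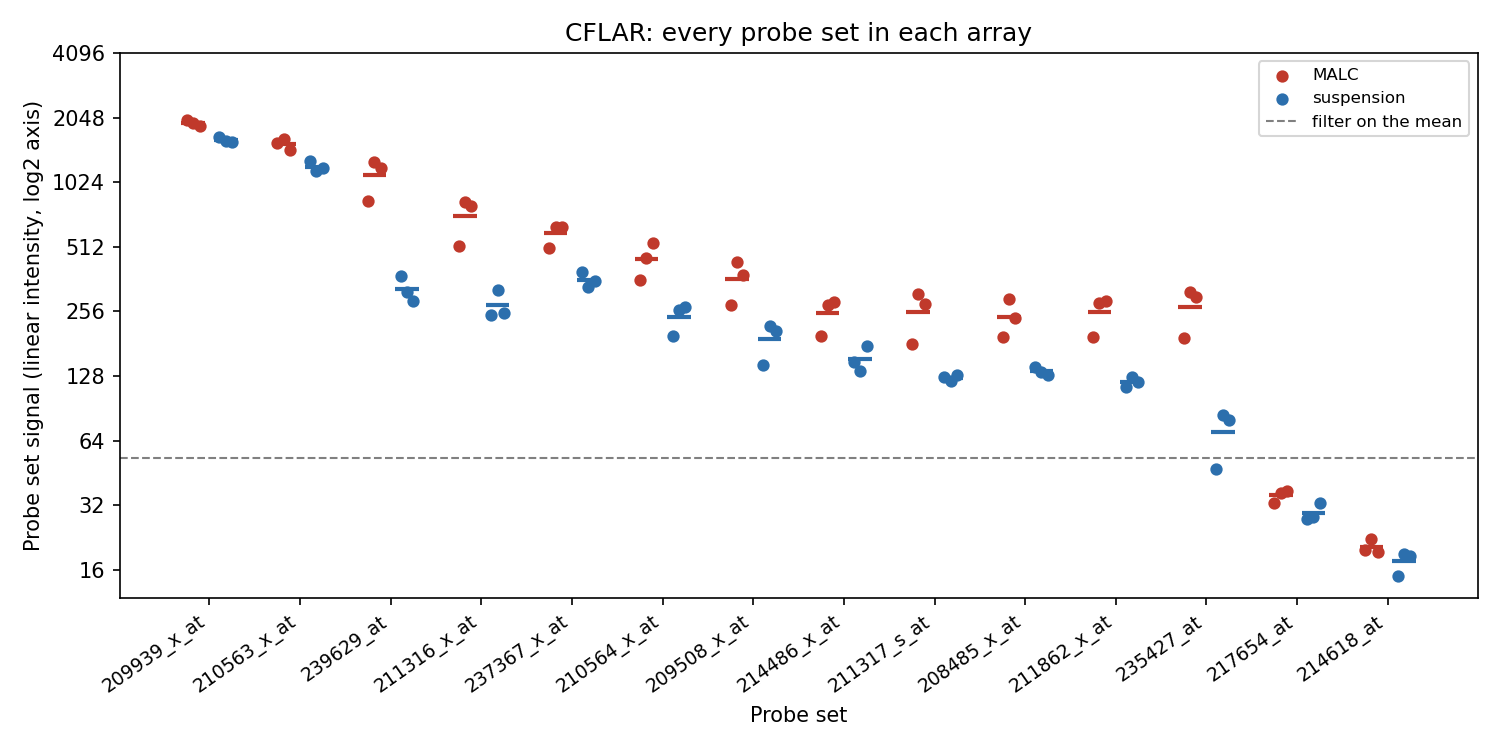
All 14 CFLAR probe sets are plotted by array (points, log2 axis) with the group mean (bar), MALC left of suspension, in order of brightness, and the dashed line is the filter at 53.4. The gap between the groups is narrow in 209939_x_at and wide in 239629_at and 235427_at.

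The unequal change among CFLAR probe sets was measured within arrays. The log2 value of 239629_at minus that of 209939_x_at was −1.24, −0.60 and −0.65 in MALC, against −2.10, −2.27 and −2.41 in suspension. The groups did not overlap, and the shift was 1.43 (exact permutation p = 0.1, the smallest possible). Of the tested CFLAR probe sets, 239629_at was picked for its smallest limma p, and 209939_x_at, the brightest, had the smallest rise. The separation of this pair is therefore a description and adds no evidence. Across the 6 arrays the 12 probe sets correlated with each other at a Pearson r of 0.73 to 0.99, with all points sharing the split between culture forms. Of the 12, 10 carry the suffixes _x_at or _s_at, which Affymetrix gives to probe sets that can detect more than a single transcript. The 2 without them, 239629_at and 235427_at, had the largest rises (3.24-fold and 3.29-fold). The gene has several transcripts, and whether transcripts of other genes add to these signals was not tested. Which transcript each probe set reads was not determined here.

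Whether CFLAR rose more than CASP8 therefore depended on the probe set that stood for CFLAR. The CFLAR log2 changes of 209939_x_at and 210563_x_at (0.26 and 0.36) were below those of both CASP8 probe sets (0.42 and 0.56). Those of the other 10 tested CFLAR probe sets (0.65 to 1.72) were above both. With 209939_x_at, the log2 value of CFLAR minus that of CASP8 213373_s_at was 1.89, 1.78 and 1.75 in MALC, against 1.93, 1.94 and 2.02 in suspension. It was lower in each aggregate, by 0.15 on average, a change of CFLAR relative to CASP8 to 0.899. With 239629_at the same difference was 0.65, 1.19 and 1.10 in MALC, against −0.17, −0.34 and −0.39 in suspension. It was higher in each aggregate, by 1.28, a 2.43-fold change. The exact permutation p was 0.1, the smallest possible, in both cases. Since 239629_at was picked for its small limma p, its separation from CASP8 is a description and adds no evidence.

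**Figure D4:**
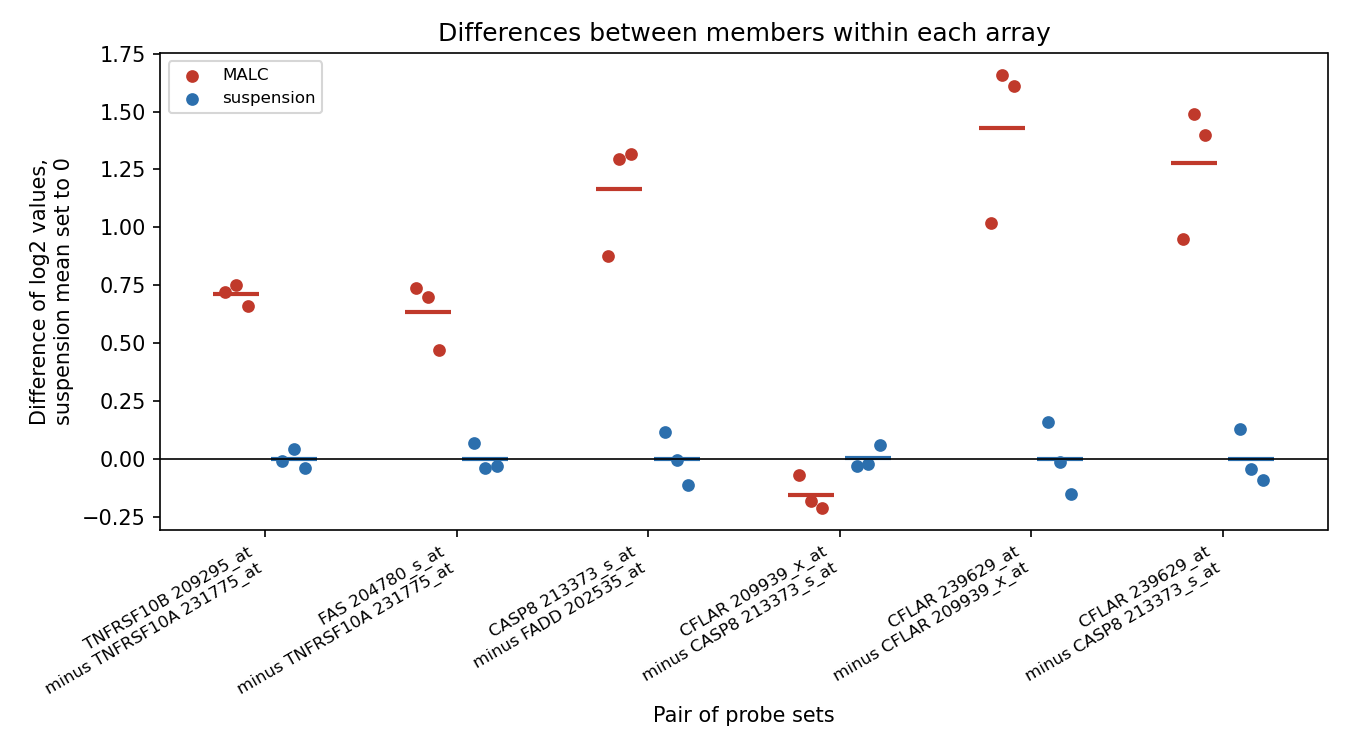
For each of 6 pairs of probe sets, the difference of their log2 values in each array is plotted (points) with the group mean (bar), after the suspension mean of that pair was set to 0. The pair CFLAR 209939_x_at minus CASP8 lies 0.15 lower in MALC, and the other 5 pairs lie 0.64 to 1.43 higher.

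The surrounding pathway was described by a list of 41 further genes, of which 37 had a probe set with their symbol alone and 34 were tested, each by its brightest probe set. Of the 34, 10 were higher and 7 lower in MALC in limma, where 18.6% and 22.7% of all 13765 genes read in this way were higher and lower. The median log2 change of the 34 was −0.04. Both counts were lower with suspension 1 as the only suspension array, where fewer of all probe sets were called as well.

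Among other ligands, receptors and decoys, 2 of 6 tested genes rose and none fell. TNFRSF10D encodes a decoy receptor that binds TRAIL without passing on the death signal. It had 627.6, 744.1 and 814.5 in MALC, against 154.3, 291.7 and 282.1 in suspension (2.96-fold, adjusted p = 0.00156 in limma), so the aggregates lay far above the suspension cells. TNFRSF1A, tumour necrosis factor receptor 1, averaged 590.2 ± 31.8 in MALC and 432.6 ± 48.6 in suspension (SD, n = 3 each), a 1.36-fold rise. Its call was lost without suspension 2 and suspension 3, with a log2 change of 0.27 against 0.44 with all arrays (adjusted p = 0.164).

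Among the other complex components, ubiquitin ligases and deubiquitinases, 5 of 10 tested genes rose and 1 fell. The largest rises were of deubiquitinase genes. TNFAIP3, which encodes A20, had 796.8, 602.6 and 637.5 in MALC, against 243.9, 334.6 and 319 in suspension (2.21-fold, adjusted p = 0.00101 in limma). CYLD, which removes ubiquitin chains from these complexes, rose 1.67-fold, and OTULIN, which removes linear chains, rose 1.37-fold. The OTULIN call was lost without suspension 2 and suspension 3, with a log2 change of 0.40 against 0.46 with all arrays (adjusted p = 0.0665).

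Of 6 tested genes for steps after caspase-8, 3 fell and none rose. BAX, a pore-forming protein of the mitochondrion, had 347.6, 175.9 and 238.5 in MALC, against 364.1, 591 and 552.2 in suspension. MALC 1 nearly reached suspension 1, and the log2 change of −0.96 (adjusted p = 0.0189 in limma) lost its call without MALC 2, MALC 3, suspension 2 or suspension 3 (log2 change −0.94 to −0.74, adjusted p = 0.0626 to 0.0643). Without both suspension 2 and suspension 3 it was −0.54 (0.285). BAK1, a relative of BAX, fell to 0.688 of its suspension level, and BID, which caspase-8 cleaves to engage the mitochondrion, fell to 0.734. Without suspension 2 and suspension 3 the log2 changes of BAK1 and BID were −0.50 and −0.58, against −0.54 and −0.45 with all arrays, and both calls were lost (adjusted p = 0.0847 and 0.0659). Of the necroptosis genes, RIPK3 and ZBP1 were tested and neither passed, with log2 changes of −0.10 each.

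Among other modulators and adaptors, 3 of 10 tested genes rose and 3 fell. FCMR, which encodes the Fc receptor for IgM, had 427.9, 831.9 and 952.5 in MALC, against 41.99, 91.25 and 122.7 in suspension (7.50-fold, adjusted p = 0.00106 in limma). MALC 1 was the lowest aggregate and suspension 1 the lowest suspension array. TNFAIP8, a gene induced by tumour necrosis factor, rose 2.52-fold (2255 ± 618 in MALC and 888.7 ± 257 in suspension; SD, n = 3 each). FAIM, an inhibitor of Fas-induced death in B cells, had 118.7, 79.77 and 59.03 in MALC, against 230.1, 202.7 and 211.1 in suspension, a fall to 0.429.

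**Figure D5:**
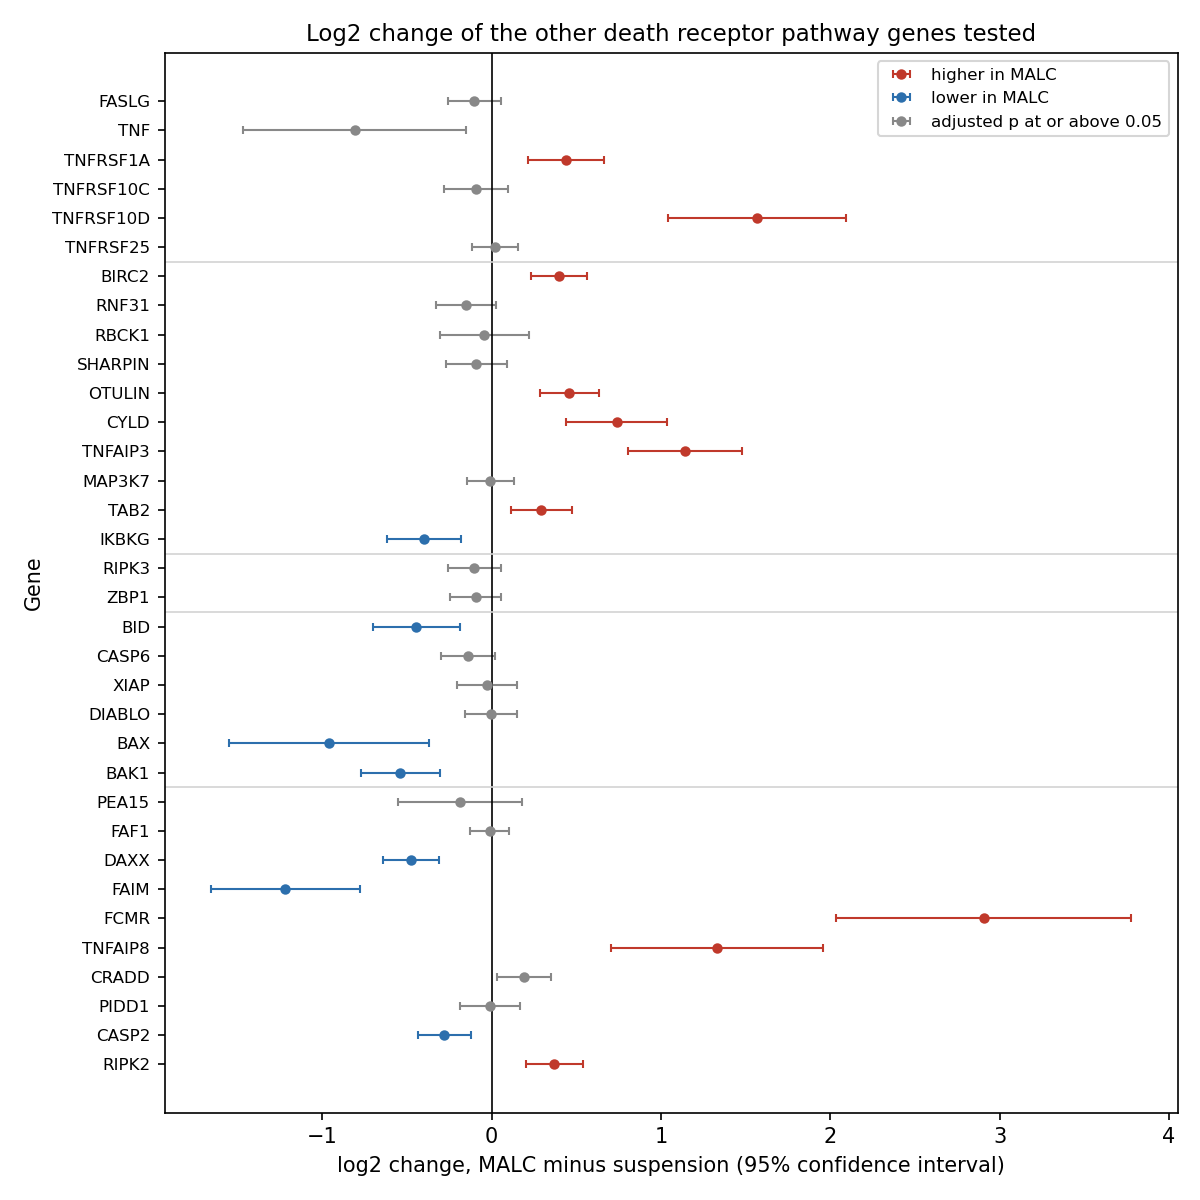
The log2 change (MALC minus suspension) of the 34 tested genes of the surrounding pathway is drawn with its 95% confidence interval from limma, with grey lines between the 5 sublists and colours for the call. FCMR, TNFRSF10D, TNFAIP8 and TNFAIP3 lie above 1, and FAIM lies below −1.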

How the data were processed

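The authors deposited linear intensities, 1 value for each of 54675 probe sets on each array. Biotinylated cRNA was made from 200 ng of total RNA by one-cycle labelling, per the labels' protocols. MAS5 is the only tool in the submitters' processing notes, and the sources used here give neither its version nor the background correction or normalization. Array medians lay between 80.7 and 81.7, so a shift of all transcripts may not be visible. The number of arrays limits the precision.

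Groups came from the sample titles. The 62 control probe sets were left out. Members were matched by the annotation's symbol. For the other lists, symbols were updated through Entrez identifiers with RefSeq (GRCh38.p14), which held 41037 of 41091 probe sets with 1 symbol (1801 had several and 11721 none). Values were set to log2(intensity + 16), filtered at the 40th percentile of the mean and fitted over 32768 probe sets with limma 3.58.1 in R 4.3.3 (eBayes with trend, two-sided, group only). The fit was tested on simulated data with noise independent between arrays, so its error rate on these arrays was not measured. Means ± SD are linear intensities.

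All member probe sets are given, and of each of the 5 sublists up to 3 genes with the largest called change. RIPK3 and ZBP1 were named after their values were seen. Members and lists were chosen with earlier results of these data known. Same-numbered samples deviated together from their groups' means (r = 0.25, 0.17 and 0.14 for numbers 1, 2 and 3, all above 0.1), so the number was treated as pairing the samples in an alternative fit. The labels do not say what it marks, and numbers 2 and 3 were not told apart (0.18 and 0.14 when crossed). Alternatives changed the pseudocount, the filter, the scaling, the trend, the array weights, the block, the probe sets tested and the arrays used.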

Additional observations from a re-analysis of the deposited data

How the results depend on the processing

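Of 540 log2 changes of single member probe sets under the alternatives, 509 stayed on their side of the threshold, 22 lost their call, 9 gained one and none of the called changes turned in sign. The 18 member probe sets higher in MALC numbered 4 with 1 probe set a gene, 3 without _s_at and _x_at probe sets, and 9 without suspension 2 and suspension 3. The 4 lower numbered 2 with 1 probe set a gene and 0 in limma without suspension 2 and suspension 3, where 6510 of 32768 probe sets were called against 13649 with all arrays. They numbered 2 to 4 with each array left out in turn, 2 without suspension 2 or suspension 3. Fewer probe sets were tested in the first pair of settings (8 and 10 members), and suspension 1 was the lone suspension array in the last, assumed to vary like the MALC arrays. The 10 other pathway genes higher numbered 6 both without _s_at and _x_at probe sets and without suspension 2 and suspension 3. The 7 lower numbered 1 without suspension 2 and suspension 3, and 4 (without MALC 2) to 8 with each array left out. The sample number as a replicate block gave 19 member probe sets higher and 4 lower, and 10 and 8 other pathway genes. Among the members it changed the call of FAS 233820_at alone, and among the other pathway genes that of TNF alone. The causes of these changes were not tested. The precision is limited by 3 arrays a group, of which samples 2 and 3 were nearly alike.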

Other observations

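TNF, which encodes the ligand of tumour necrosis factor receptor 1, was singled out after its values were seen. Its brightest probe set, 207113_s_at, had signals of 345.8, 323.1 and 356.6 in MALC, against 354.3, 803.5 and 793.6 in suspension. Suspension 1 lay among the aggregates, and suspension 2 and suspension 3 lay far above them. The log2 change of −0.81 did not pass (adjusted p = 0.0533 in limma). It passed once the sample number was a block (0.0376), and with the 60th percentile filter (0.0474), after quantile normalization (0.0374), with array weights (0.000141), without suspension 1 (0.000354) and without both arrays numbered 1 (9.01e-09, with samples 2 and 3 of each group nearly alike). It did not pass without suspension 2 (log2 change −0.62, adjusted p = 0.154) or without suspension 3 (−0.62, 0.157). Without both of these arrays the log2 change was −0.05 (0.766).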
